A study of Mus musculus with 4 samples.

Results

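Hypoxic melanoma cells are here the tumour cells with the highest summed level of 5 oxygen-responsive genes (Car9, Ero1l, Bnip3, Ankrd37 and Egln3). They were chosen by the summed CPM of these genes, defined below, and numbered 643 of 3217 gated melanoma cells, out of 10602 barcodes in all. The cells came from tumours of B16F10, a transplantable mouse melanoma line, which were dissociated, cleared of red cells, debris and dead cells, and profiled by 10x Genomics 5′ single-cell RNA sequencing. One library was made for each of 4 groups, all carrying B16F10 tumours: Control; aPD-1, given an antibody that blocks PD-1, a checkpoint receptor of T cells; D+F, given doxorubicin (an anthracycline) plus fasudil (an inhibitor of ROCK kinases); and D+F+P, given both drugs and that antibody. Doses, times, the host strain, animal ages and the number of mice behind a library are not given in the sources used here, and what the Control animals received is not stated either. There was 1 library per group, so a difference between groups cannot be told apart from a difference between suspensions.

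A barcode was gated as a melanoma cell with at least 300 genes, at least 3000 UMIs (unique molecular identifiers, 1 per captured RNA molecule), at most 20% mitochondrial UMIs and at least 10 UMIs of the pigment genes Pmel, Mlana, Tyrp1 and Dct together. It also needed no UMI of the leukocyte gene Ptprc, at least 10% ribosomal protein UMIs and under 10 UMIs of 6 mitotic genes. The top 20% of these cells over all libraries by the 5 genes' CPM (UMIs scaled to a total of 1000000 per cell or per sum) were called hypoxic, and the remaining 2574 gated cells are the other melanoma cells. The boundary lies within a continuous range: the 10 members just inside it had scores of 2857 to 2879 CPM, the 10 cells just outside had 2835 to 2848 CPM, and 114 cells lay within 5% of it. Hypoxic cells had a median of 16246 UMIs, against 17153 in other melanoma cells. Their median mitochondrial share was 2.75%, against 2.68%, and their median ribosomal protein share was 22.02%, against 21.6%. No barcode was held by hypoxic cells of more than 1 library. Among all 10602 barcodes 69 occurred in more than 1 library, and among gated melanoma cells 3 did. Whether a hypoxic cell's barcode occurred among the remaining barcodes of another library was not checked.

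Cells that run short of oxygen stop hydroxylating the alpha subunits of hypoxia-inducible factor (HIF), which then escape destruction through the VHL ubiquitin ligase, pair with ARNT and bind a short core motif in DNA. HIF targets move metabolism from respiration to glycolysis, clear mitochondria, call in blood vessels and slow growth. In solid tumours such cells lie far from perfused vessels, where delivery of drugs and entry of lymphocytes are also limited.

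The promoters below show that motif, with ACGTG or GCGTG on either strand in capitals (CACGT or CACGC where it reads on the opposite strand; overlapping matches are merged). Each is the 150 bases before a start site in RefSeq on GRCm38.p6, written 5′ to 3′ along the gene. They are 3 genes of the selection rule, 4 metabolic and collagen genes of the hypoxia lists, and Gys1 as a list gene with no match in the window.
Car9 (chr4:43506876-43507025, plus strand): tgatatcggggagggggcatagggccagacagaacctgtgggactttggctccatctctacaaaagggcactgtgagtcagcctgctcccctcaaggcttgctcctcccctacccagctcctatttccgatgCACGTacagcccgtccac
Bnip3 (chr7:138909507-138909656, minus strand): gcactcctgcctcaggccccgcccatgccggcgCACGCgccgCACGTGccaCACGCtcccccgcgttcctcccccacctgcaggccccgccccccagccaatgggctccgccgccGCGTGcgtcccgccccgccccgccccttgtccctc
Ero1l (chr14:45318573-45318722, minus strand): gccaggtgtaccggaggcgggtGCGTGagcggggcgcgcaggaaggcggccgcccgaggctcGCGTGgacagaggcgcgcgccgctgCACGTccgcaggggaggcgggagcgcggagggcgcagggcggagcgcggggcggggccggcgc
Slc2a1 (chr4:119108595-119108744, plus strand): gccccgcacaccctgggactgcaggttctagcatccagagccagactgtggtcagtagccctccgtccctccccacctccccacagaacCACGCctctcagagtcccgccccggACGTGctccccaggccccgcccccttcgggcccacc
Pgk1 (chrX:106186950-106187099, plus strand): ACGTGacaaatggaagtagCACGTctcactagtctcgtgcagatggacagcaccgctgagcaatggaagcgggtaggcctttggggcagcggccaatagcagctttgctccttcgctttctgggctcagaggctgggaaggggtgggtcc
P4ha2 (chr11:54100774-54100923, plus strand): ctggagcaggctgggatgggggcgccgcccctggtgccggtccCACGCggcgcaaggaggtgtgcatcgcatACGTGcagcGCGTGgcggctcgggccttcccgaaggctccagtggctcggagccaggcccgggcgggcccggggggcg
Fam162a (chr16:36071562-36071711, minus strand): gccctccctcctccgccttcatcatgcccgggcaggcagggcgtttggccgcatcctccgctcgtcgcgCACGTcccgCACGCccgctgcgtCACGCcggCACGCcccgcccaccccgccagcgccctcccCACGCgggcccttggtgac
Gys1 (chr7:45434689-45434838, plus strand): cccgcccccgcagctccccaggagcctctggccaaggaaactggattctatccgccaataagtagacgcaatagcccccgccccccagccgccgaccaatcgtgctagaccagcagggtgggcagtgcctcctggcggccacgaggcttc

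The first 7 were printed because they hold a match, so their matches are no finding. Car9 has 1, on the opposite strand 18 bases before the start, and Bnip3 and Fam162a have 5 each. Over the whole 250 bases that RefSeq's table gives before a start, 38.6% of all 32851 promoters hold at least 1 match, and so do 57.5% of the 10829 promoters of genes tested below. Of the hypoxia-list genes tested, 70 of 83 had a RefSeq promoter. Among those genes that were higher in hypoxic cells, 63 of 90 promoters (70%) held a match, as did 7 of 9 promoters of the list genes with no call. A match is a string of letters, not a bound site.

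The 5 genes that set the score are described without a test. In all runs of 4 values here the order is Control first, aPD-1 next, then D+F and last D+F+P, and where 2 runs follow each other the first is for hypoxic cells and the second for other melanoma cells. Bnip3, a receptor that marks mitochondria for removal, stood at 1712, 1749, 1726 and 1639 CPM in hypoxic cells and at 343, 499, 459 and 433 CPM in other melanoma cells. Ero1l, which drives disulfide bond formation in the endoplasmic reticulum (ER), stood at 1495, 1204, 1248 and 1005 CPM and 146, 205, 175 and 140.0 CPM. Car9, a carbonic anhydrase on the cell surface, stood at 952, 957, 1049.8 and 1098 CPM and 194, 269, 247 and 228 CPM. These 3 genes supplied nearly the whole score: Bnip3 42.4%, Ero1l 31.0% and Car9 24.9% of its UMIs. Ankrd37 added 1.61% and Egln3, an oxygen sensor, 0.109%. All 5 genes were detected together in 24 of the 643 cells, 4 of them in 336 cells and 3 in 282 cells.

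The cells carried melanoma markers beyond the gate genes. Sox10, a neural crest factor, stood at 171, 136, 118 and 119 CPM in hypoxic cells and at 178, 154, 149.5 and 130.2 CPM in other melanoma cells. Mitf, the melanocyte master regulator, stood at 289, 263, 295 and 266 CPM and 363, 330.0, 396 and 337 CPM. In the fit described below Mitf was lower by 0.29 on the log2 scale and Sox10 had no call (-0.11). Markers of other cell types were summed in the same way. In hypoxic cells the 13 lymphocyte markers summed to 2.44, 6.20, 6.59 and 28.0 CPM and the 13 myeloid markers to 11.2, 33.5, 12.7 and 12.7 CPM, with 5 to 11 and 4 to 10 of them at 0. The same lists summed to 2.42, 15.6, 12.4 and 18.5 CPM and 11.1, 11.0, 12.4 and 5.99 CPM in other melanoma cells. The macrophage gene C1qa was at 0 in hypoxic cells of Control and D+F+P. The 9 fibroblast markers summed to at most 3.91 CPM, the 8 endothelial markers to at most 32.3 CPM, and the 5 erythroid markers were at 0 in every library. Of the 8 lymphocyte, myeloid and endothelial markers high enough to test, the lysosomal myeloid marker Cd68 was higher in hypoxic cells (log2 difference 1.60, SE 0.23, edgeR adjusted p = 2.5e-06), at 7.33, 10.8, 8.87 and 7.64 CPM and 2.22, 2.97, 4.25 and 1.95 CPM. The endothelial marker Pecam1 was also higher (0.95) and the cytotoxic marker Gzmb lower (-1.22), and both lost the call without the library block. Repeated on cells with no lymphocyte or myeloid marker UMI, the fit described below called 1970 genes higher and 1930 lower of 9852. No fit left out cells with endothelial marker UMIs. The part of these markers in the results below was not otherwise tested. No doublet caller was run, and cells with a Ptprc UMI were left out.

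Hypoxic cells made up 12.9% of gated melanoma cells in Control (136 of 1056, Clopper-Pearson 95% interval 10.9 to 15.1), 24.2% in aPD-1 (176 of 727, 21.1 to 27.5), 25.4% in D+F (288 of 1134, 22.9 to 28.0) and 14.3% in D+F+P (43 of 300, 10.6 to 18.8). The aPD-1 and D+F shares lay above those of Control and D+F+P, and the intervals of the 2 pairs did not overlap. Of 2739 barcodes in D+F+P, 1461 were left out by the minimum of 3000 UMIs, against 373 to 632 in the other libraries. Its gated cells were deeper than those elsewhere, with medians of 28422 UMIs in its hypoxic cells and 15067, 18006 and 15315 in those of Control, aPD-1 and D+F. With every cell thinned to 3000 UMIs the shares were 13.4%, 25.9%, 23.7% and 15%, and 523 of the 643 cells (81.3%) were chosen again. With mitotic cells kept they were 12.3%, 25.1%, 26.6% and 16.8%. The intervals cover counting error only, there is no replicate check, and each share depends on a cutoff pooled over libraries.

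**Figure D1:**
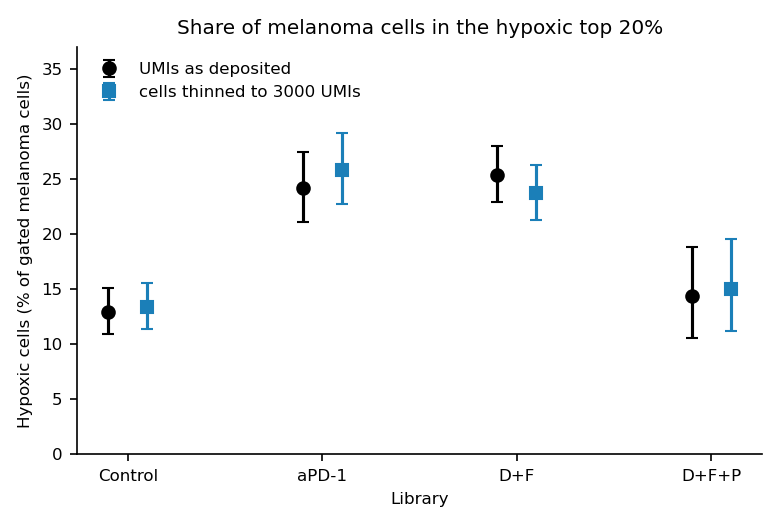
Share of gated melanoma cells (percent, vertical axis) that fell in the hypoxic top 20% in each library (horizontal axis), with exact 95% binomial intervals, from the deposited UMIs (black circles) and from cells thinned to 3000 UMIs (blue squares). In both, aPD-1 and D+F sit between 23.7% and 25.9% and Control and D+F+P between 12.9% and 15%.

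To ask which genes outside the score differed in these cells, UMIs were summed per library over hypoxic and over other melanoma cells, and the 8 sums were fitted in edgeR with the library as a block. The fit asks what recurs over 4 libraries of different treatment. The rule defined the groups, so a p-value speaks of recurrence over libraries and not of an independent grouping of cells. Of 10470 genes tested, 2324 (22.2%) were higher and 2339 (22.3%) lower in hypoxic cells at an adjusted p below 0.05. At 1.5-fold or more, 977 (9.33%) were higher and 1034 (9.88%) lower. The median log2 difference over all genes tested was -0.002. A gene could pass the minimum count for the fit through either population alone, and such genes were not set apart. Counts of list members below stand against these shares, but the lists and their members were chosen with earlier results of these data known. Without the library block 15.1% of all genes were higher and 14.9% lower. With cells thinned to 3000 UMIs these were 13.0% and 10.9% of 6563 genes. The sums alone do not tell fewer expressing cells from less RNA per cell. Values over single cells are given below for the S phase and glycolytic lists.

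Genes that sense oxygen differed first. Of 9 such genes 7 were tested, of which 6 were higher and 1 lower, with a median log2 difference of 0.60. Egln1, the main prolyl hydroxylase that tags HIF for destruction, stood at 177, 159.9, 176 and 177 CPM in hypoxic cells and at 44.9, 67.5, 68.3 and 63.7 CPM in other melanoma cells (log2 difference 1.58, SE 0.09, edgeR adjusted p = 1.7e-13). Vhl, which recognizes hydroxylated HIF, stood at 42.5, 42.5, 50.5 and 37.4 CPM and 14.9, 18.8, 20.3 and 18.9 CPM (log2 difference 1.35, SE 0.10, edgeR adjusted p = 1.5e-10). For both genes every hypoxic value lay above every other value, a separation that was not counted over all genes tested. Egln2, the sister hydroxylase, moved the other way, with 41.5, 42.5, 36.8 and 38.2 CPM and 51.1, 49.1, 47.8 and 50.3 CPM (log2 difference -0.24, SE 0.09, edgeR adjusted p = 0.0320). Both HIF subunits tested differed by less: Hif1a was higher by 0.27, in 3 of 4 libraries, and its partner Arnt by 0.60 in all 4. Cited2, an inducible competitor of HIF for its coactivator, was higher by 0.65 and Hif1an, the asparaginyl hydroxylase of HIF, by 0.45. Epas1 and Hif3a were too low to test. After thinning, 3 of 7 were higher.

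Glucose, lactate and acid transporters were higher in 5 of 7 genes tested, with none lower and a median of 0.77. Slc2a1 (chr4:119108711-119137983 on GRCm38), the main glucose importer of tumour cells, stood at 317, 271, 281 and 218 CPM in hypoxic cells and at 74.3, 87.5, 75.1 and 70.3 CPM in other melanoma cells (log2 difference 1.90, SE 0.07, edgeR adjusted p = 1.3e-16). Bsg, the chaperone that carries lactate transporters to the surface, stood at 3876, 3773, 3785 and 3050.1 CPM and 1485, 1603, 1543 and 1399.7 CPM (log2 difference 1.33, SE 0.04, edgeR adjusted p = 5.2e-18). Neither gene's groups overlapped, which was likewise not counted over all genes. Slc2a3, a second glucose importer, was higher by 1.27, the lactate exporter Slc16a3 by 0.77 and the lactate transporter Slc16a1 by 0.36. Slc4a7, a bicarbonate transporter, had no call, with a log2 difference of 0.02. After thinning, 3 of 5 genes tested were higher.

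Nearly the whole glycolytic pathway was higher, 17 of 18 genes tested, with none lower and a median of 0.76. Summed over the list, hypoxic cells held 40129, 37222, 37720.0 and 35327 CPM and other melanoma cells 25862, 25408, 24785 and 23886 CPM. Among early steps, Pfkp, a phosphofructokinase, stood at 270.3, 239, 261 and 252 CPM and 103, 120.3, 116 and 108 CPM (log2 difference 1.26, SE 0.06, edgeR adjusted p = 4.9e-14). Gpi1, the isomerase before it, stood at 2723, 2711, 2850.2 and 2244 CPM and 1284, 1361, 1447 and 1256 CPM (log2 difference 1.05, SE 0.04, edgeR adjusted p = 5.6e-16). The hexokinases Hk2 and Hk1 were higher by 0.92 and 0.89. Among late steps, Pgk1 was higher by 0.77, Gapdh by 0.75, Pkm by 0.69 and Ldha, which turns pyruvate to lactate, by 0.60. Eno1 had the smallest called difference, 0.40. Pfkfb3, which makes the activator of phosphofructokinase, was higher by 1.59 from a low level. Its relative Pfkfb4 had no call (log2 difference 0.15, SE 0.34, edgeR adjusted p = 0.743).

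Genes that make or break down glycogen, and genes of the switch that keeps pyruvate out of mitochondria, were higher too, in all 8 tested of 10. Gys1, glycogen synthase, stood at 176, 163, 181 and 135 CPM in hypoxic cells and at 38.4, 47.6, 48.1 and 37.1 CPM in other melanoma cells (log2 difference 2.01, SE 0.07, edgeR adjusted p = 8.5e-17). Gbe1, the branching enzyme, stood at 129, 133, 149 and 141 CPM and 42.4, 50.5, 48.8 and 48.8 CPM (log2 difference 1.61, SE 0.07, edgeR adjusted p = 3.0e-15). Pygl, which breaks glycogen down, had the largest difference of the list, 2.55, at 5.87, 5.58, 4.09 and 5.94 CPM and 0.471, 1.09, 1.25 and 0.696 CPM. Pygl was high enough to test only through its hypoxic sums, so its call and its place among the 8 are no separate finding. Pgm2 and Ugp2, which feed glucose phosphate into glycogen, were higher by 0.93 and 0.73. Pdk1 and Pdk3, kinases that switch off pyruvate dehydrogenase, were higher by 0.90 and 1.16.

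Of 8 hypoxia-responsive mitochondrial genes tested, 5 were higher and none lower. Higd1a, a small protein of the respiratory supercomplexes, stood at 2879, 3092, 3112 and 3077 CPM in hypoxic cells and at 913, 1179.5, 1051 and 1025 CPM in other melanoma cells (log2 difference 1.62, SE 0.04, edgeR adjusted p = 1.8e-19). Bnip3l, a mitophagy receptor and relative of the rule gene Bnip3, stood at 699, 652, 645 and 615 CPM and 215, 249, 240.3 and 208 CPM (log2 difference 1.59, SE 0.05, edgeR adjusted p = 2.2e-17). Fam162a, a mitochondrial protein known as a HIF target, stood at 1881, 1891, 1906 and 1735 CPM and 754, 899, 856 and 746 CPM (log2 difference 1.26, SE 0.04, edgeR adjusted p = 3.0e-17). In these 3 genes the lowest hypoxic library lay above the highest value of the other cells, a separation not counted over all genes. Ndufa4l2, which lowers complex I activity, was higher by 2.13 but uneven, at 21.5, 46.2, 26.4 and 2.55 CPM and 2.76, 9.01, 9.61 and 1.53 CPM. The protease Lonp1 was higher by 0.83. The mitophagy genes Pink1 and Fundc1 had no call (0.18 and -0.10).

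**Figure D2:**
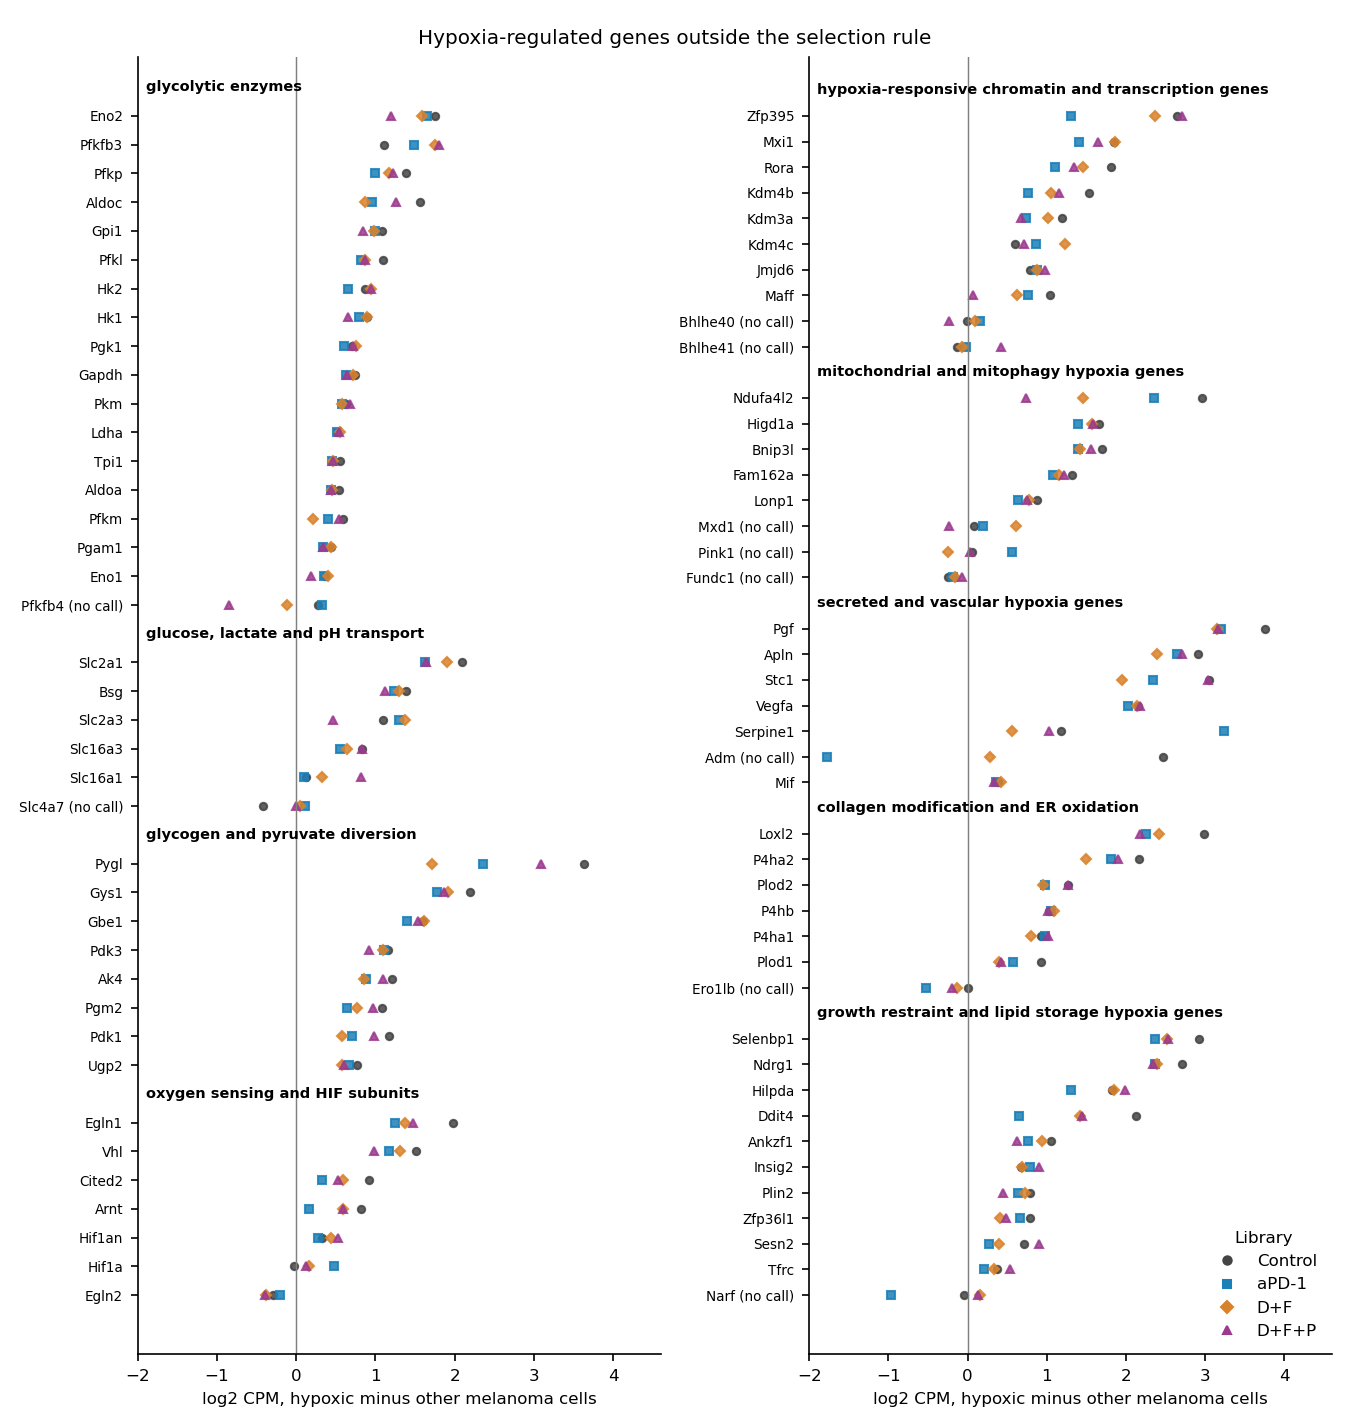
Log2 CPM in hypoxic minus other melanoma cells (horizontal axis) for tested members of the 9 hypoxia lists (rows, sorted within a list), with 1 point per library. Genes without an edgeR call are marked. In Slc2a1, Gys1, Egln1, Higd1a, Pgf and Ndrg1 all 4 points lie to the right of 1, while the 3 points of Adm run from below -1 to above 2 (it was at 0 UMIs in D+F+P hypoxic cells, which has no point).

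Of the secreted factors, 6 of 7 tested were higher, with a median of 2.19, and 5 further genes were too low to test. Pgf (chr12:85166635-85177790), a placental growth factor that acts on endothelium, had the largest rise of all genes with a mean of at least 20 CPM that moved the same way in every library. It stood at 60.1, 61.0, 45.5 and 47.5 CPM in hypoxic cells and at 4.44, 6.64, 5.13 and 5.29 CPM in other melanoma cells (log2 difference 3.40, SE 0.12, edgeR adjusted p = 5.6e-17). Vegfa (chr17:46016993-46032369), the chief driver of vessel growth, stood at 78.2, 102, 88.5 and 88.3 CPM and 17.6, 25.1, 20.1 and 19.5 CPM (log2 difference 2.19, SE 0.08, edgeR adjusted p = 2.0e-16). Apln, a peptide for vascular cells, and Stc1, a secreted glycoprotein, were higher by 2.68 and 2.51. The cytokine Mif was high in both populations and differed by 0.44. Adm, another vasoactive peptide, differed in sign between libraries, with 7.82, 0.930, 2.05 and 0 CPM and 1.41, 3.17, 1.69 and 1.81 CPM, and had no call (log2 difference 0.48, SE 0.48, edgeR adjusted p = 0.443).

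Genes for collagen modification and ER oxidation, many of whose enzymes use oxygen, were higher in 6 of 7 tested genes, with a median of 1.12. P4ha2, a subunit of prolyl hydroxylase, stood at 111, 84.9, 76.9 and 72.2 CPM in hypoxic cells and at 24.8, 24.2, 27.2 and 19.4 CPM in other melanoma cells (log2 difference 1.90, SE 0.10, edgeR adjusted p = 4.3e-14). Loxl2, which crosslinks collagen, stood at 54.3, 47.1, 58.4 and 41.6 CPM and 6.86, 9.90, 10.9 and 9.19 CPM (log2 difference 2.55, SE 0.12, edgeR adjusted p = 1.2e-14). Plod2, a lysyl hydroxylase, was higher by 1.17 and P4hb, the disulfide isomerase partner of the P4ha enzymes, by 1.12. Ero1lb, the relative of the rule gene Ero1l, had no call (log2 difference -0.15, SE 0.34, edgeR adjusted p = 0.752). It stood at 1.96, 1.86, 2.27 and 1.70 CPM in hypoxic cells and at 1.95, 2.67, 2.49 and 1.95 CPM in other melanoma cells.

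Genes that restrain growth or store lipid were higher in 10 of 11 tested. Ndrg1, a stress-induced gene that restrains spread in some tumours, stood at 179, 227, 215 and 219.9 CPM and 27.4, 44.1, 40.9 and 43.5 CPM (log2 difference 2.52, SE 0.07, edgeR adjusted p = 3.3e-19). Selenbp1, a methanethiol oxidase, stood at 403, 326, 423 and 379 CPM and 53.3, 63.2, 73.6 and 65.9 CPM (log2 difference 2.66, SE 0.07, edgeR adjusted p = 1.8e-19). Hilpda, which blocks fat breakdown in lipid droplets, was higher by 1.80 and the droplet coat gene Plin2 by 0.74. Ddit4, an inhibitor of the mTORC1 growth pathway, was higher by 1.55, and its hypoxic level differed between libraries, at 117, 35.6, 56.6 and 45.0 CPM. Of 10 chromatin and transcription genes, 8 were higher and none lower, among them the histone demethylases Kdm3a (1.0), Kdm4b (1.17) and Kdm4c (0.99) and the MYC antagonist Mxi1 (1.76). Bhlhe40, a hypoxia-responsive repressor in many cell types, had no call, at 234, 147, 167 and 121 CPM and 235, 132, 157 and 142 CPM.

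Of 28 nuclear respiratory chain genes, 17 were lower and none higher, with a median of -0.15. The list summed to 19746, 20051, 20352 and 19062 CPM in hypoxic cells and to 25222, 23911, 24860.0 and 24020.0 CPM in other melanoma cells. Ndufa4, a cytochrome oxidase subunit whose place Ndufa4l2 can take, had the largest fall, at 1868, 1970.5, 1918 and 1790.3 CPM and 3185, 3039, 3209 and 3086 CPM (log2 difference -0.66, SE 0.04, edgeR adjusted p = 1.5e-12). Sdhb, a subunit of succinate dehydrogenase, stood at 672, 693, 683 and 766 CPM and 1190.2, 1023, 1096 and 1129 CPM (log2 difference -0.59, SE 0.05, edgeR adjusted p = 4.1e-10). The partner subunits Sdha and Sdhc had no call (0.10 and 0.08). Of 15 citric acid cycle genes 5 were lower, including Fh1 (-0.43) and Ogdh (-0.41), and none was higher. Of the 13 genes of the mitochondrial genome 3 were higher, 4 lower and 6 had no call, from mt-Co1 at 0.31 to mt-Nd4l at -0.33. With the library block left out, 9 of the 28 respiratory, 2 of the 15 cycle and 1 of the 13 mitochondrial genes were lower and none was higher, against the 14.9% of all genes lower in that fit. After thinning, 9 respiratory and 2 cycle genes were lower, and with DESeq2, or without Control, aPD-1 or D+F in turn, 3 cycle genes were.

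Sterol synthesis was lower in 13 of 16 genes, with none higher and a median of -0.51. Idi1, which makes the isoprenoid building block, stood at 31.3, 18.9, 22.1 and 16.1 CPM in hypoxic cells and at 59.8, 42.3, 56.2 and 43.5 CPM in other melanoma cells (log2 difference -1.12, SE 0.11, edgeR adjusted p = 4.6e-09). Mvk and Mvd, the enzymes before it, were lower by 0.82 and 0.78 on the log2 scale. Insig2, which holds back the pathway's transcription factor in the ER, was higher by 0.83. After thinning, 6 of the 16 synthesis genes were lower.

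Stress responses differed by list. Of 17 tested genes of the ATF4 and amino acid response, which cells switch on when translation is restrained, 15 were higher and 1 lower, with a median of 0.91. Trib3, a pseudokinase of this response, stood at 67.0, 52.4, 50.3 and 42.4 CPM in hypoxic cells and at 15.1, 12.2, 7.70 and 11.4 CPM in other melanoma cells (log2 difference 2.32, SE 0.12, edgeR adjusted p = 4.3e-14). Aldh1l2, a mitochondrial folate enzyme, stood at 69.4, 38.1, 29.3 and 21.2 CPM and 8.48, 4.56, 3.08 and 1.81 CPM (log2 difference 3.20, SE 0.13, edgeR adjusted p = 4.6e-16). Nupr1 was higher by 2.0 and the glutathione-degrading Chac1 by 1.53. Phgdh, which starts serine synthesis, was lower by 0.40 on the log2 scale. Of 17 genes for ER chaperones and the unfolded protein response, 6 were higher and 8 lower: Herpud1 was at 0.76 and Sdf2l1 at -0.65. With the library block left out the ATF4 count was 10 higher and none lower, and the ER count was 5 higher and 4 lower. The ER genes lower were 5 after thinning, 5 without Control, 5 for the top 10% of cells and 2 without S phase cells. Heat shock genes were mostly lower, 7 of 11, with 2 higher. Hspa8, the constitutive HSP70, stood at 2197, 1976, 2086 and 2309 CPM and 3776, 2967, 3496 and 3376 CPM (log2 difference -0.59, SE 0.04, edgeR adjusted p = 2.3e-11).

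Antioxidant genes were mixed, 7 of 15 higher and 3 lower (4 of 14 higher after thinning). Hmox1, haem oxygenase, stood at 172, 138, 138 and 129.9 CPM in hypoxic cells and at 58.4, 47.8, 36.4 and 45.3 CPM in other melanoma cells (log2 difference 1.72, SE 0.08, edgeR adjusted p = 5.7e-15). The cystine importer Slc7a11 was higher by 2.05 and the metallothionein Mt2 by 1.08, while the peroxidase Prdx1 was lower by 0.54 on the log2 scale. Of 15 p53 targets 4 were higher and 3 lower, near the 22.2% and 22.3% of all genes, with a median of 0.04. The largest rise among them was that of Cdkn1a, an inhibitor of the cell cycle. Cdkn1a stood at 484, 266, 405 and 205 CPM and 203, 152, 191 and 134 CPM (log2 difference 1.05, SE 0.07, edgeR adjusted p = 2.5e-11). Among 16 immediate early genes, which also respond to dissociation, 12 were higher and 4 lower. Ier3 was higher by 1.12 and Myc by 0.97, and Nr4a1 was lower by 0.57 on the log2 scale.

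Replication genes were among those that fell most at a mean of 20 CPM or more. All 21 S phase genes tested were lower, with a median of -1.57. Rrm2, the regulated subunit of ribonucleotide reductase, stood at 10.8, 10.5, 15.7 and 1.70 CPM in hypoxic cells and at 132, 65.3, 69.1 and 45.4 CPM in other melanoma cells (log2 difference -2.68, SE 0.16, edgeR adjusted p = 1.4e-12). Pclaf, a partner of the replication clamp, stood at 7.82, 6.51, 20.2 and 0.849 CPM and 118, 70.1, 75.1 and 56.7 CPM (log2 difference -2.76, SE 0.20, edgeR adjusted p = 5.4e-11). Mcm3, part of the replicative helicase, was lower by 1.93, thymidine kinase Tk1 by 2.02 and the licensing factor Cdt1 by 1.65 on the log2 scale. Of 15 tested G2 and M phase genes outside the gate 14 were lower, and all 5 that could be tested after thinning were. The gate had already removed cells with 10 or more UMIs of the mitotic genes from both populations. Of hypoxic cells 8.40% (54 cells) had 10 or more UMIs of the S phase list, against 40.1% (1033 cells) of other melanoma cells. Ribosome biogenesis, which feeds growth, was lower in 11 of 16 genes and higher in 1, with Dkc1 at -0.97 and Bop1 at -0.91. Without the library block 7 of these 16 were lower, and after thinning 5 of 15.

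The fit was repeated without any cell holding 10 or more UMIs of that list, an alternative chosen after seeing the data. It called 1601 genes higher and 1570 lower of 9781. All 17 glycolytic genes tested were higher in it, 14 of 17 ATF4 genes were higher, and 8 of 8 MHC class II genes were lower. Of 18 S phase genes still tested, 7 were lower, with a median of -0.49. Of 11 G2 and M phase genes 6 were lower and 1 higher, and of 16 ribosome biogenesis genes 6 were lower and 2 higher.

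**Figure D3:**
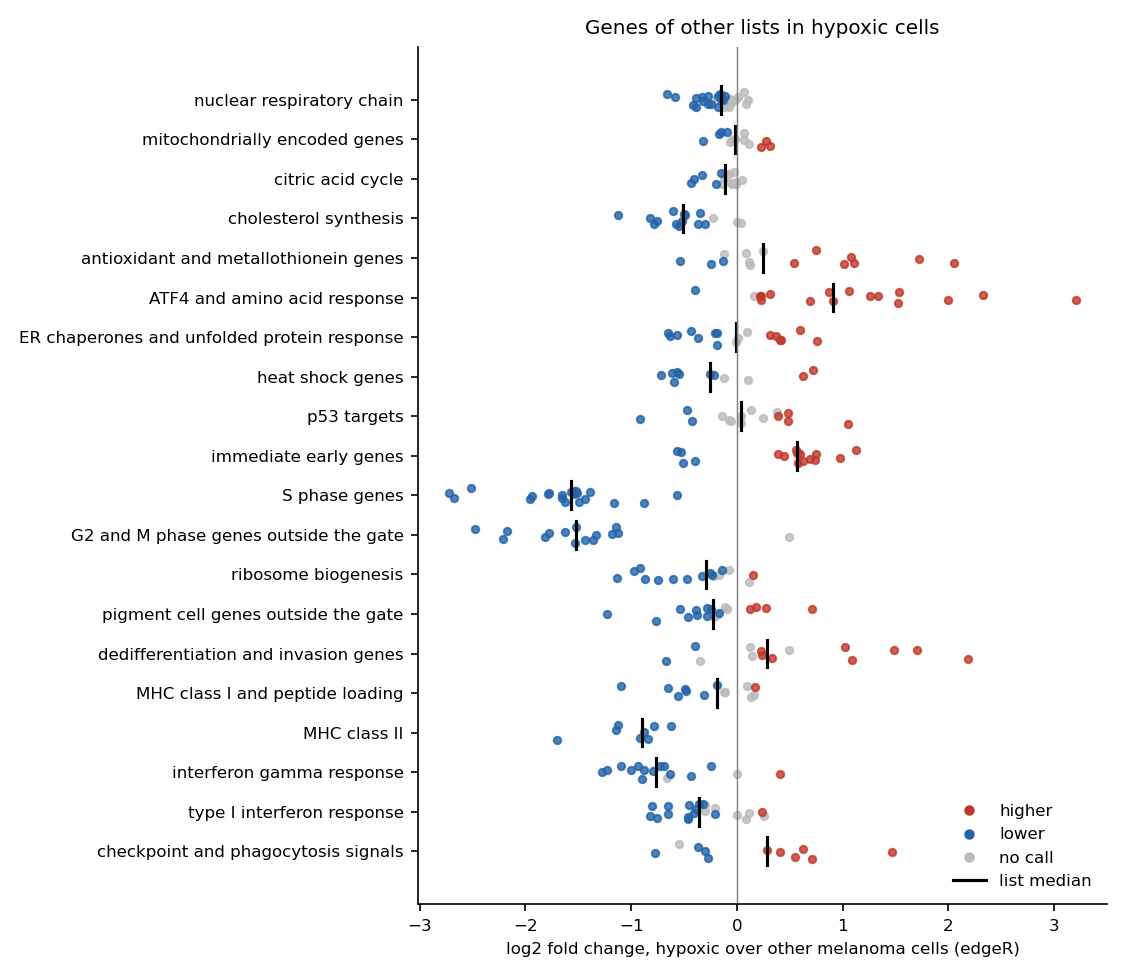
Log2 fold change of single genes in hypoxic over other melanoma cells (horizontal axis, edgeR) for lists outside the hypoxia lists (rows), coloured by call, with the list median as a black bar. The S phase and G2 and M phase medians lie near -1.5, MHC class II and the interferon gamma response lie below -0.7, and the ATF4 response lies near 0.9.

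Of 18 tested pigment cell genes outside the gate, 10 were lower and 4 higher (5 of 17 lower after thinning). Trpm1, a channel gene that hosts a microRNA, stood at 94.8, 174, 154 and 239 CPM in hypoxic cells and at 246, 282, 294 and 318 CPM in other melanoma cells (log2 difference -0.77, SE 0.09, edgeR adjusted p = 8.3e-08). Gpr143, a receptor of the pigment organelle, was lower by 1.23 on the log2 scale, and the transcription factor Tfap2a was higher by 0.71. Genes tied to dedifferentiation and invasion were higher in 8 of 14 tested and lower in 2 (5 of 9 higher after thinning). Fn1, the matrix protein fibronectin, stood at 173, 44.0, 56.4 and 34.0 CPM and 35.8, 14.2, 12.7 and 6.13 CPM (log2 difference 2.18, SE 0.11, edgeR adjusted p = 2.7e-14). Control exceeded the other libraries in both populations, yet within each library the hypoxic value was at least 3 times the other. Sparc, a matrix-binding glycoprotein, was higher by 1.09, the receptor kinase Axl had no call (-0.35) and Sox9 was lower by 0.67 on the log2 scale.

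Targets and transporters of the drugs stood outside the naming rule and were named after their values were seen. Rock1 and Rock2, the kinases that fasudil blocks, were higher by 0.40 and 0.83. Rock2 stood at 94.3, 82.4, 88.0 and 71.3 CPM in hypoxic cells and at 49.4, 51.0, 50.4 and 50.6 CPM in other melanoma cells. Top2b, a target of doxorubicin, had no call (-0.04), and Abcb1b, an efflux pump for doxorubicin, stood at 3.42, 1.24, 1.59 and 3.40 CPM and 6.73, 7.92, 5.28 and 7.66 CPM, lower by 1.60 on the log2 scale. The remaining genes of the 10 largest rises among those with a mean of at least 20 CPM and 1 direction in every library were Tnfrsf9 (3.33), which encodes a co-stimulatory receptor best known from T cells, Espn (2.81), an actin-bundling protein, and Nppb (2.25), a natriuretic peptide. Tnfrsf9 stood at 129, 57.6, 36.6 and 50.1 CPM and 9.69, 6.44, 5.28 and 6.55 CPM, beside the lymphocyte markers given above.

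Genes for antigen presentation were mostly lower in hypoxic cells. All 8 tested MHC class II genes were lower in the fit with the library block and 1 of 8 in the fit without it, where 14.9% of all genes were lower. With the block, the list's median was -0.90. The list summed to 790.4, 2461, 1739 and 3021 CPM in hypoxic cells and to 1275, 4312, 2781 and 5884 CPM in other melanoma cells. H2-Aa, a class II chain, stood at 64.0, 274, 236 and 424 CPM and 132, 582, 370.2 and 908 CPM (log2 difference -0.88, SE 0.07, edgeR adjusted p = 1.5e-10). Ciita, the class II transactivator, stood at 0.489, 2.48, 2.50 and 4.24 CPM and 2.76, 10.0, 7.55 and 12.7 CPM (log2 difference -1.70, SE 0.26, edgeR adjusted p = 7.5e-06). Within every library the hypoxic value was the lower of the pair, although treated libraries exceeded Control in both populations. The 13 myeloid markers summed to 11.2 to 33.5 CPM in hypoxic cells and to 5.99 to 12.4 CPM in other melanoma cells. In cells with no lymphocyte or myeloid marker UMI, 7 of 7 tested class II genes were lower. Of 13 MHC class I and peptide loading genes, 7 were lower and 1 higher: the immunoproteasome subunit Psmb10 was at -1.09 and the peptide-loading gene Tapbp at -0.65, while the heavy chain gene H2-K1 was at 0.17 and B2m had no call (0.09). Without the library block 3 of the 13 were lower, and after thinning 4.

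Of the interferon gamma targets 13 of 16 were lower, 1 was higher and the median was -0.76. Gbp4, a guanylate-binding protein, stood at 7.82, 30.1, 38.0 and 60.3 CPM in hypoxic cells and at 31.8, 80.3, 84.9 and 131 CPM in other melanoma cells (log2 difference -1.23, SE 0.10, edgeR adjusted p = 3.7e-10). Cxcl9, a T cell attractant, was lower by 1.28 on the log2 scale. Cd274, which encodes PD-L1, was the exception, at 25.4, 25.1, 31.8 and 50.9 CPM and 13.5, 33.5, 21.7 and 35.2 CPM (log2 difference 0.41, SE 0.14, edgeR adjusted p = 0.0225). It was higher in Control, D+F and D+F+P and lower in aPD-1. Type I interferon genes were lower in 13 of 21 and higher in 1, with a median of -0.36. With the library block left out, 4 of 16 interferon gamma genes and 3 of 21 type I genes were called lower, against 14.9% of all genes. Of the type I genes 8 were lower with DESeq2, 8 in cells with no immune marker UMI, 6 without aPD-1 and 4 of 17 after thinning. Close copies within the H2 and Gbp families may share reads, so single members are uncertain.

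**Figure D4:**
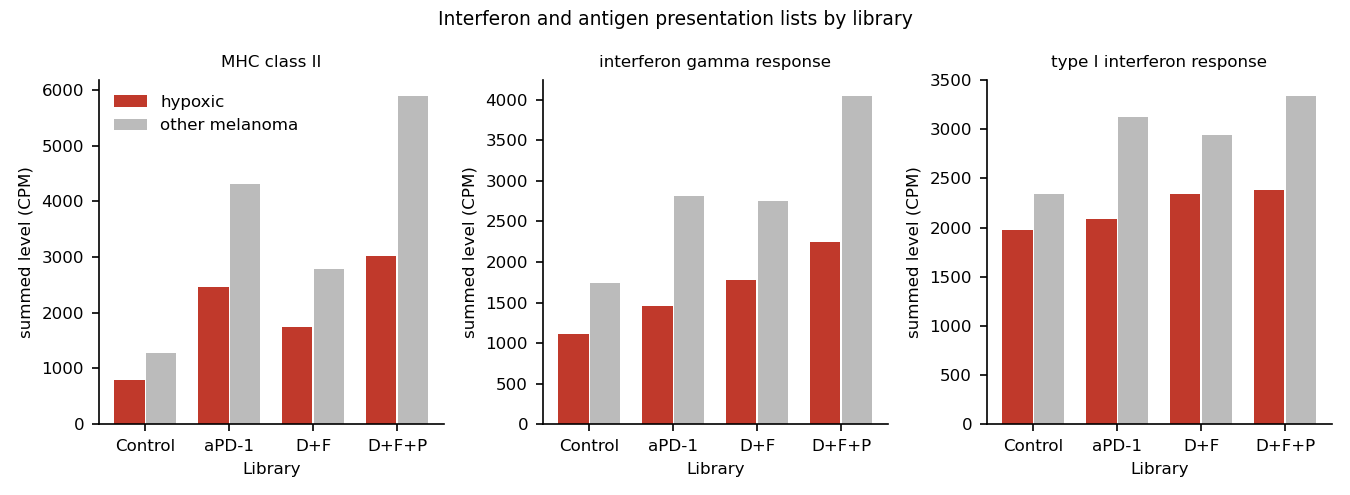
Summed CPM (vertical axes, from 0) of the MHC class II, interferon gamma and type I interferon lists in hypoxic (red) and other melanoma cells (grey) of each library (horizontal axes). The red bar is the lower of each pair in all 12 pairs, and class II runs from 790 CPM in Control to 3021 CPM in D+F+P within hypoxic cells.

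Of 11 tested surface signals to immune cells 6 were higher and 4 lower, or 3 and 1 without the library block. Pvr, a ligand of the receptors TIGIT and CD226, stood at 50.3, 39.7, 45.5 and 56.0 CPM in hypoxic cells and at 17.8, 18.5, 17.1 and 18.1 CPM in other melanoma cells (log2 difference 1.46, SE 0.10, edgeR adjusted p = 3.2e-11). Cd47, which restrains phagocytosis, stood at 121, 87.7, 99.1 and 78.9 CPM and 59.0, 63.2, 58.4 and 76.2 CPM (log2 difference 0.71, SE 0.10, edgeR adjusted p = 2.1e-06). Calr, which promotes phagocytosis when exposed, was lower by 0.37 on the log2 scale. Lgals3 had a call of 0.55 although it was higher in only 2 of 4 libraries, and DESeq2 gave it the opposite sign.

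The 5-gene score is continuous. Gated cells were split into 5 quintiles of the score, the highest quintile being the hypoxic cells, and list levels are given as a description. The glycolytic list rose over every step, from 16041 CPM in the lowest quintile through 28923 in the middle to 37767 in the hypoxic cells. The mitochondrial and mitophagy list rose from 906 through 2512 to 5814 CPM. The ATF4 list went over the lower 4 quintiles from 1002 to 1212 CPM, and reached 1729 CPM in the hypoxic cells. The nuclear respiratory list went from 26256 through 24391 to 20008 CPM. S phase genes went from 1041 through 867 to 271 CPM. Single cells overlapped: between 89.2% and 95.3% of hypoxic cells in a library exceeded the median of the other cells for the glycolytic list, and 39.5% to 60.3% exceeded their 90th percentile.

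**Figure D5:**
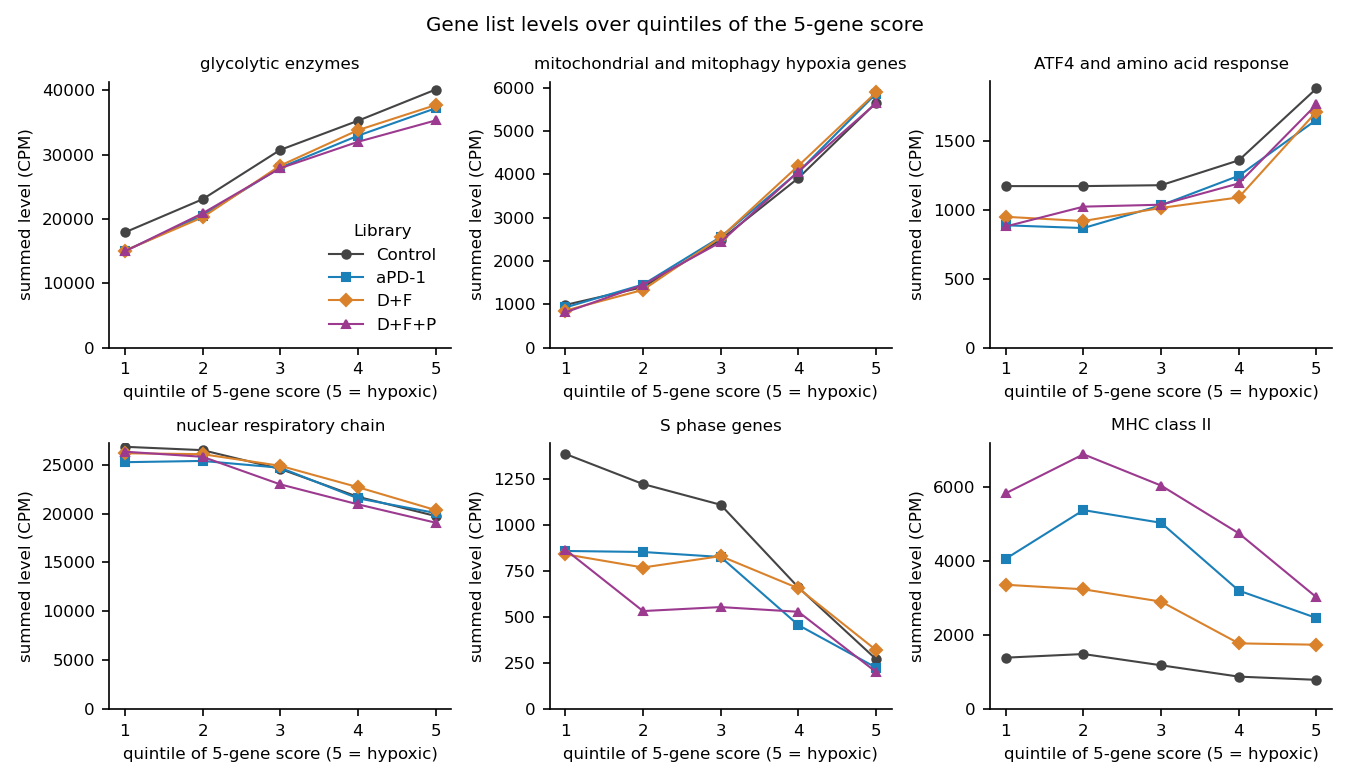
Summed level of 6 gene lists (CPM, vertical axes) over quintiles of the 5-gene score (horizontal axes, quintile 5 being the hypoxic cells), 1 line per library. The mitochondrial and mitophagy lines nearly coincide and Control is highest for glycolytic enzymes in every quintile, while class II lines keep 1 order in every quintile, with D+F+P highest, then aPD-1, then D+F, and Control lowest.

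Within hypoxic cells each treated library was set against Control, with the ratio of CPM and its exact 95% interval for counting error, and no p-value. In all 3 comparisons the same 136 Control cells are the reference. Past 1.5-fold, aPD-1 had 232 genes higher (3.2%) and 511 lower (7.06%) of 7242 with at least 50 UMIs in the pair. D+F had 263 higher (3.41%) and 539 lower (7.0%) of 7704, and D+F+P had 308 higher (5.26%) and 835 lower (14.3%) of 5852. The median over all these genes was -0.09 in aPD-1, -0.09 in D+F and -0.13 in D+F+P. With median-of-ratios scaling, 329 genes were higher and 342 lower in aPD-1, 404 genes were higher and 351 lower in D+F, and 503 higher and 512 lower in D+F+P.

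MHC class II genes were higher in every treated library. Of 6 members measured, 6, 5 and 6 were past 1.5-fold higher in aPD-1, in D+F and in D+F+P, with median log2 ratios of 1.74, 1.51 and 2.20. In other melanoma cells the medians were 1.87, 1.44 and 2.57, over 8, 7 and 8 members. H2-Aa had 131 UMIs in Control hypoxic cells and 883, 1037 and 500 in the treated libraries, with log2 ratios of 2.10 (1.83 to 2.37), 1.88 (1.62 to 2.15) and 2.73 (2.45 to 3.02). Interferon gamma genes were past the fold in 8 of 13, 10 of 14 and 12 of 13 measured, with medians of 0.93, 0.98 and 1.45. The minimum for a measured gene was set on both libraries together. A member low in Control thus entered through the treated library, like Gbp4 with 16 UMIs in Control and 71 in D+F+P. This rule can raise the counts and medians of both lists. Summed over all members, with no minimum, interferon gamma log2 ratios were 0.38 (0.31 to 0.46), 0.67 (0.60 to 0.74) and 1.01 (0.92 to 1.09). Those of class II were 1.64, 1.14 and 1.93. Type I interferon medians were -0.11, 0.13 and -0.15 in hypoxic cells, over 18, 20 and 13 members, and 0.38, 0.29 and 0.63 in other melanoma cells, over 21. The summed level of that list in hypoxic cells was above Control in each, unlike 2 of the medians, with log2 ratios of 0.081 (0.025 to 0.138), 0.24 (0.19 to 0.29) and 0.27 (0.20 to 0.34). Whether hypoxic and other cells differ in these ratios was not tested. In the same hypoxic cells the summed lymphocyte markers had log2 ratios of 1.34 (-0.11 to 3.11), 1.43 (0.046 to 3.16) and 3.52 (2.15 to 5.23). The summed myeloid markers had log2 ratios of 1.57 (0.91 to 2.29), 0.18 (-0.54 to 0.95) and 0.18 (-0.86 to 1.18). The part of such RNA in the class II and interferon ratios was not tested.

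Glycolytic medians within the hypoxic cells were -0.15, -0.04 and -0.20 in aPD-1, in D+F and in D+F+P, with 0 of 15, 0 of 16 and 0 of 15 genes past the fold upward and 1, 1 and 3 downward. Over all 9 hypoxia lists and the 3 treated libraries, list medians ran from -0.44 to 0.16. Among the hypoxia-list genes named by the rule, Ddit4 was lower, with 35.6 CPM in aPD-1 against 117 in Control, a log2 ratio of -1.72 (-2.05 to -1.39). Cholesterol synthesis was lower in all 3, with medians of -0.64, -0.41 and -0.71 and 10, 4 and 9 genes past the fold downward. In other melanoma cells those medians were -0.37, -0.17 and -0.57. Fn1 was at 173 CPM in Control and 44.0 CPM in aPD-1, a log2 ratio of -1.98 (-2.27 to -1.69), and at 34.0 CPM in D+F+P. Tagln2, an actin-binding protein, was also at 173 CPM in Control, against 33.4 CPM in D+F and 24.6 CPM in D+F+P, with log2 ratios of -2.37 (-2.66 to -2.09) and -2.81 (-3.41 to -2.27). In other melanoma cells Tagln2 had log2 ratios of -1.80 in D+F and -2.10 in D+F+P. There Fn1 had -1.34 in aPD-1 and -2.55 in D+F+P, and Ddit4 had -0.25 in aPD-1.

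Some values rest on few cells, and those of D+F+P on 43 cells in all. Lcn2, an iron-binding protein, had 67 UMIs in 8 of the 136 Control hypoxic cells, with 46.3% in 1 cell, and 0, 2 and 0 UMIs in the treated libraries. Serpina3n had 57 UMIs in 16 Control cells, with 42.1% in 1 cell. Cck had 48 UMIs in 3 Control cells and 2 in D+F. The chemokine gene Ccl4 had 70 UMIs in D+F, of which 92.9% came from 1 of 6 cells. Ly6a, a surface marker induced by interferon, had 3 UMIs in Control against 51 in aPD-1 (22 cells) and 60 in D+F (21 cells, 33.3% in 1 cell), with log2 ratios of 3.43 (1.80 to 5.75) and 3.22 (1.60 to 5.54). Gbp6 had 2 against 49 UMIs in aPD-1, from 31 cells, a log2 ratio of 3.96 (2.03 to 7.04).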

How the data were processed

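Per the labels, tumour suspensions were profiled with 10x 5′ chemistry, and the submitters' processing notes name Cell Ranger, version 3.1.0, with the genome GRCm38 (mm10). The annotation release is not given in the sources used here. The authors deposited 1 matrix of whole UMI counts per library, with 31053 genes. Members and gene lists were chosen with earlier results of these data known. Members were chosen pooled over libraries. UMIs were summed per library for hypoxic and for other gated melanoma cells and fitted with edgeR 4.0.16 in R 4.3.3 (filterByExpr, TMM, quasi-likelihood test, library as a block, Benjamini-Hochberg adjustment over 10470 genes). Both sums of a library come from 1 cell suspension, which is the source of the pairing. Rule and gate genes stayed in the fit and got no test in the text. SE is that of the log2 difference. Hypoxic cells held 10848939 UMIs, from 1177989 in D+F+P to 4397890 in D+F. Treated libraries were compared with Control by CPM ratios with exact conditional binomial 95% intervals, for genes with at least 50 UMIs in the pair.

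Named genes were the 10 highest and 10 lowest log2 differences at an adjusted p below 0.05, with a mean of at least 20 CPM and 1 direction in all libraries, leaving out rule, gate, mitochondrial, ribosomal protein, haemoglobin and antigen receptor genes, gene models and markers of other cells. From each list described, the 4 most extreme members on either side were added, also any member of the 9 hypoxia lists, and per treated library the 4 genes with the highest lower and the 4 with the lowest upper bound. Alternatives were DESeq2 1.42.0, no filter, no library block, each library left out, thinning to 3000 UMIs, other cutoffs, and cells free of immune marker UMIs. Leaving out S phase cells was added after seeing the data. Promoters were matched to RefSeq on GRCm38.p6 by symbol or by a synonym of 1 gene only. Gene coordinates are those of GENCODE M21 on GRCm38, which held 30934 of the 31053 gene IDs. Some list members are counted in their list and not reported here by name.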

Additional observations from a re-analysis of the deposited data

Results flagged for a closer look

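In 4 gene lists the summed level in hypoxic relative to other melanoma cells went in opposite directions in different libraries, with the counting interval of each library given here on its own side of 0. The difference between libraries was not tested. The mitochondrially encoded genes were higher in hypoxic cells of Control (log2 difference 0.10) and lower in those of aPD-1 (-0.10), of D+F (-0.064) and of D+F+P (-0.085). MHC class I and peptide loading genes were higher in Control (0.042) and lower in aPD-1 (-0.15), in D+F (-0.15) and in D+F+P (-0.30). ER chaperones and unfolded protein response genes were higher in aPD-1 (0.082) and lower in Control (-0.26), D+F (-0.12) and D+F+P (-0.27). Lymphocyte markers were higher in D+F+P (0.60) and lower in aPD-1 (-1.34) and in D+F (-0.91), at summed levels of 6.20 to 28.0 CPM in the hypoxic cells of these 3 libraries.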

How the results depend on the processing

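Counts of 2324 genes higher and 2339 lower in hypoxic cells became 1525 higher with DESeq2 (1574 lower), 1555 lower without the replicate block by library (1585 higher), and 851 higher and 713 lower with cells thinned to 3000 UMIs, where 6563 genes were tested. Leaving out 1 library at a time gave 1705 to 2337 higher and 1793 to 2247 lower. Among called genes tested again, 96.9% to 100% kept their direction in every alternative. Fewer kept their call: after thinning 45.1% of 1824 higher genes and 40.6% of 1704 lower genes tested again. The call was kept by 65.6% of higher and 67.3% of lower genes with DESeq2, and by 68.1% and 66.4% without the block. Without S phase cells 65.6% of the higher and 64.8% of the lower genes tested again kept it. Without the block 62 named genes lost their call, 235 did not change theirs, and none changed sign. Hypoxic shares moved to 10.2% in D+F+P among cells with no immune marker UMI, and to 15.1% in Control without S phase cells. Without S phase cells 4 genes changed sign: Slbp (0.038), Ung (0.29), Ncl (0.14) and Ddx58 (-0.047). With DESeq2 Lgals3 did (-0.024). Genes past 1.5-fold between libraries (higher and lower) were 117 and 187 in aPD-1, 133 and 236 in D+F and 95 and 268 in D+F+P after thinning. With at least 20 UMIs in the pair they were 487 and 886, 532 and 903, and 661 and 1442. With median-of-ratios scaling they were 404 and 351 in D+F and 503 and 512 in D+F+P. The cause was not tested, apart from the fewer or more genes compared under thinning and the lower minimum.

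Each group is 1 library, so no value between groups has a replicate check, and intervals cover counting error only. The cutoff splits a continuous score. D+F+P holds 43 hypoxic cells.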

Other observations

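Hypoxic cells differed among themselves along the score that chose them. Split at the median score, the 321 lower-scoring cells held 36140.0 CPM of the glycolytic list and the 322 higher-scoring cells 39394 CPM. The ATF4 list stood at 1492 and 1966 CPM, and the nuclear respiratory list at 21061 and 18954 CPM. S phase genes stood at 302 and 239 CPM, and MHC class II genes at 2170.4 and 1658 CPM. In Control, aPD-1 and D+F class II genes were lower in the higher-scoring cells, at 740, 2330 and 1395 CPM against 858, 2582 and 2096 CPM, while in D+F+P both groups were near 3021 CPM. These are sums over cells of all libraries and are given with no test.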
